A study of Mus musculus with 28 samples.

Results

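The 6 transcription factor genes studied here pattern the midbrain, the hindbrain and the dorsoventral axis of the neural tube, and were read in cultured mouse cells: En1, En2, Zic1, Pax3, Tfap2a and Nkx6-1. They were taken by name and are 6 of the 17295 genes of the deposited expression table, and all 6 were among the 16275 genes tested. Messenger RNA was sequenced from 28 libraries, 2 for each of 14 groups, and the authors gave 1 normalised value per gene and library. Of the groups 10 are induced neural stem cells (miNSC), which came from fibroblasts that received the lentiviral activator M2rtTA and doxycycline-driven transcription factors, then picked as colonies and expanded with bFGF and EGF. The factor cocktails are named by letters. F is eSox17FNV, an engineered Sox17, and every cocktail holds it. For the other factors the labels give only B, K and M, and 4F holds all 4.

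Embryonic fibroblasts of ICR mice gave a KF and a BKF line, and embryonic fibroblasts of the Sox2-GFP line gave KF, BKF and KMF lines. From Sox2-GFP mice aged 1.0 year came tail-tip BKF, KMF and 4F lines, with 4F sampled at passage 8 and again at passage 18. An ear fibroblast 4F line is from mice of the same strain and age. The 4 groups that received no factors were tail-tip fibroblasts at 1.0 and 2.5 years, skin fibroblasts at 2.5 years, and neural stem cells (NSC) of 2.5-year mice at passages 2 and 5, all Sox2-GFP. Embryonic and ear fibroblasts were not analysed here, so lines of those origins have no matched starting cells. The labels do not say whether the libraries of a group came from separate cultures or from 1 picked colony. The p-values therefore measure only the spread between these libraries, which may be technical.

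As background, the engrailed genes En1 and En2 encode homeodomain repressors that mark and maintain the midbrain and anterior hindbrain. Zic1 and Pax3 mark the dorsal neural tube, which receives BMP and Wnt signals, and Tfap2a marks the neural plate border, neural crest and surface ectoderm. Nkx6-1 is a homeodomain repressor of ventral progenitors and is induced by Sonic hedgehog. Several of these genes also act outside the nervous system, En1 and Pax3 in skin and dermis among other places.

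On GRCm38 (GENCODE M21) all 6 are protein-coding genes. En1 (ENSMUSG00000058665) lies at chr1:120602418-120607992 and En2 (ENSMUSG00000039095) at chr5:28165694-28172166, both on the plus strand. On the minus strand are Zic1 (ENSMUSG00000032368) at chr9:91358058-91365810, Pax3 (ENSMUSG00000004872) at chr1:78101267-78197134, Tfap2a (ENSMUSG00000021359) at chr13:40715302-40738376 and Nkx6-1 (ENSMUSG00000035187) at chr5:101658139-101664996. Zic4, another zinc finger gene of the Zic family, overlaps Zic1 on the opposite strand.

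RefSeq promoter sequences (GRCm38.p6) were found for 4 of the 6 genes. The stretch from 250 to 71 bases before the start is shown for En1 and Zic1, where it overlaps no GENCODE exon, so that the DNA upstream of a gene present in fibroblasts and lines can be read beside its levels. They are the windows chr1:120602237-120602416 (plus strand) and chr9:91365839-91366018 (minus strand), each of 180 bases, 5′ to 3′ along the gene's strand. Capitals mark every match, on either strand, to a motif searched.
En1: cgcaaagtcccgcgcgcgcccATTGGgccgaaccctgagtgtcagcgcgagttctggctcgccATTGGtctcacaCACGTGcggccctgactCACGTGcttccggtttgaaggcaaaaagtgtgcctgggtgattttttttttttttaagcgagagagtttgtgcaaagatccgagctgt
Zic1: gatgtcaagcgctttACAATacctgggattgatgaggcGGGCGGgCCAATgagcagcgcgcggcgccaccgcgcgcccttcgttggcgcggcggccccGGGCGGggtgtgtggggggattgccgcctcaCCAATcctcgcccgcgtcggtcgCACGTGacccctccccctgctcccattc
The motifs were chosen with these sequences in view. For SOX proteins they were ACAAAG, held by 12.3% of 32851 promoter windows of the same length, and the shorter ACAAT, held by 21.6%. The octamer motif was ATGCAAAT, held by 1.15%. The others were the CCAAT box, held by 25.0%, the E-box CACGTG, held by 3.69%, and the GC box GGGCGG, held by 21.1%. En1 holds 2 matches to the CCAAT box and 2 to the E-box, and none to the other motifs. Zic1 holds 1 match to the shorter SOX motif, 2 to the CCAAT box, 1 to the E-box and 2 to the GC box. The Zic1 window has 23 CG steps and a GC content of 70.6%, the En1 window 15 and 55%, and the median window 4 and 51.1%.

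In the text that follows, values are the authors' normalised values, given as replicate 1 and replicate 2 (for NSC, passage 2 and passage 5). Fold changes are differences of log2(value + 1) ± SE from limma, with Benjamini-Hochberg p-values adjusted over the 16275 genes and a threshold of 0.05. This scale understates changes of low values. Where all libraries of 1 side were at 0, the gene is said to be listed at 0 and no fold is given. Whether the values correct for transcript length is not given, so levels are compared within a gene only. Library totals were nearly equal, from 15563679 to 15571626, and sequencing depth is unknown, so no detection limit can be given. Summed values of 10 fibroblast markers ran from 157634 to 196530 in the fibroblasts and from 547 to 3325 in miNSC. For 10 neural stem cell markers the sums were 374 to 776 in fibroblasts, 66700 to 151614 in miNSC and 81478 to 127987 in NSC, and Sox2, Sox1, Hes5 and Olig2 were at 0 in every fibroblast library. In bulk libraries, fewer cells of a type and less RNA per cell cannot be told apart.

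En2 was higher in every line library than in any fibroblast library. It was listed at 0 in 5 of 6 fibroblast libraries and at 1 in the other, a 2.5-year tail-tip library, and stood at 5 and 19 in NSC. The ICR lines were highest, with 812 and 724 in KF and 768 and 870 in BKF. Sox2-GFP embryonic lines had 310 and 404 in KF, 330 and 344 in BKF and 86 and 91 in KMF. Both ICR lines thus stood above every other line, and among the Sox2-GFP embryonic lines KMF stood below KF and BKF without overlap. Tail-tip values were 104 and 90 in BKF, 103 and 144 in KMF, 45 and 24 in 4F at passage 8 and 38 and 26 at passage 18. The ear 4F line had 23 and 14. Every 4F library was below every library made with 2 or 3 factors.

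En1 differed from En2 in being present in all 28 libraries, fibroblasts included. Tail-tip fibroblasts had 137 and 116 at 1.0 year and 200 and 231 at 2.5 years, and skin fibroblasts 434 and 473. NSC were lowest, at 12 and 25. Skin fibroblasts lay above every line but 1. That line was ICR KF, at 662 and 634, whereas ICR BKF had 159 and 166. The Sox2-GFP embryonic lines had 65 and 72 in KF, 148 and 140 in BKF and 82 and 59 in KMF. In tail-tip lines En1 was at 88 and 128 in BKF, 88 and 104 in KMF, 103 and 60 in 4F at passage 8 and 64 and 79 at passage 18, and in the ear line at 43 and 58. Ordered by mean, the groups from 1.0-year tail-tip fibroblasts down through the tail-tip lines to Sox2-GFP KF each overlapped with the next.

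Zic1, a zinc finger factor of dorsal neural tissue, was present in fibroblasts and had the widest spread among lines of the 6. Tail-tip fibroblasts had 377 and 326 at 1.0 year and 330 and 276 at 2.5 years, skin fibroblasts 86 and 69, and NSC 14 and 76. BKF lines of embryonic origin were high, at 1134 and 1093 in ICR and 938 and 852 in Sox2-GFP, and so was the ear 4F line at 908 and 852. The KF lines stood lower, at 346 and 332 in ICR and 387 and 326 in Sox2-GFP, and Sox2-GFP KMF at 156 and 131. All tail-tip lines were below all of these, with 26 and 23 in BKF, 7 and 10 in KMF, 1 and 2 in 4F at passage 8 and 0 and 0 at passage 18.

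Pax3, a paired-box factor of the dorsal neural tube and neural crest, was at 0 in 13 of 20 miNSC libraries. Values above 0 were found in 4 lines: ICR BKF with 230 and 204, Sox2-GFP BKF with 114 and 103, Sox2-GFP KMF with 84 and 94, and ICR KF with 0 and 15. Every tail-tip, ear and Sox2-GFP KF library was at 0, as were both NSC libraries. Tail-tip fibroblasts had 104 and 100 at 1.0 year and 78 and 124 at 2.5 years, and skin fibroblasts 10 and 24. Pax3 was thus listed at 0 in all 8 libraries of the tail-tip lines, while tail-tip fibroblasts of the same age had it.

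Tfap2a, which encodes AP-2 alpha, was at 2 or below in every fibroblast and NSC library. It stood at 321 and 274 in Sox2-GFP KMF, at 248 and 204 in the ear 4F line and at 122 and 130 in ICR KF. Other embryonic lines were low, with 3 and 3 in ICR BKF, 7 and 5 in Sox2-GFP KF and 18 and 22 in Sox2-GFP BKF. The tail-tip lines had 98 and 54 in BKF, 90 and 119 in KMF, 9 and 7 in 4F at passage 8 and 24 and 26 at passage 18. KF, BKF and 4F each had a line with both libraries at 9 or below and a line with both at 54 or above.

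Nkx6-1 was the gene of the tail-tip lines. Its values were 154 and 124 in BKF, 284 and 358 in KMF, 569 and 546 in 4F at passage 8 and 941 and 704 at passage 18. Elsewhere it reached 49 and 70 in Sox2-GFP KF and 30 and 13 in the ear line, and was at 5 and 8 in ICR KF, 6 and 4 in Sox2-GFP BKF and 0 in ICR BKF and Sox2-GFP KMF. Fibroblast libraries had 0 to 3, with a median of 1.5, and NSC 0 and 0. No library outside the tail-tip lines overlapped with them, and the 4 tail-tip groups did not overlap with each other.

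**Figure D1:**
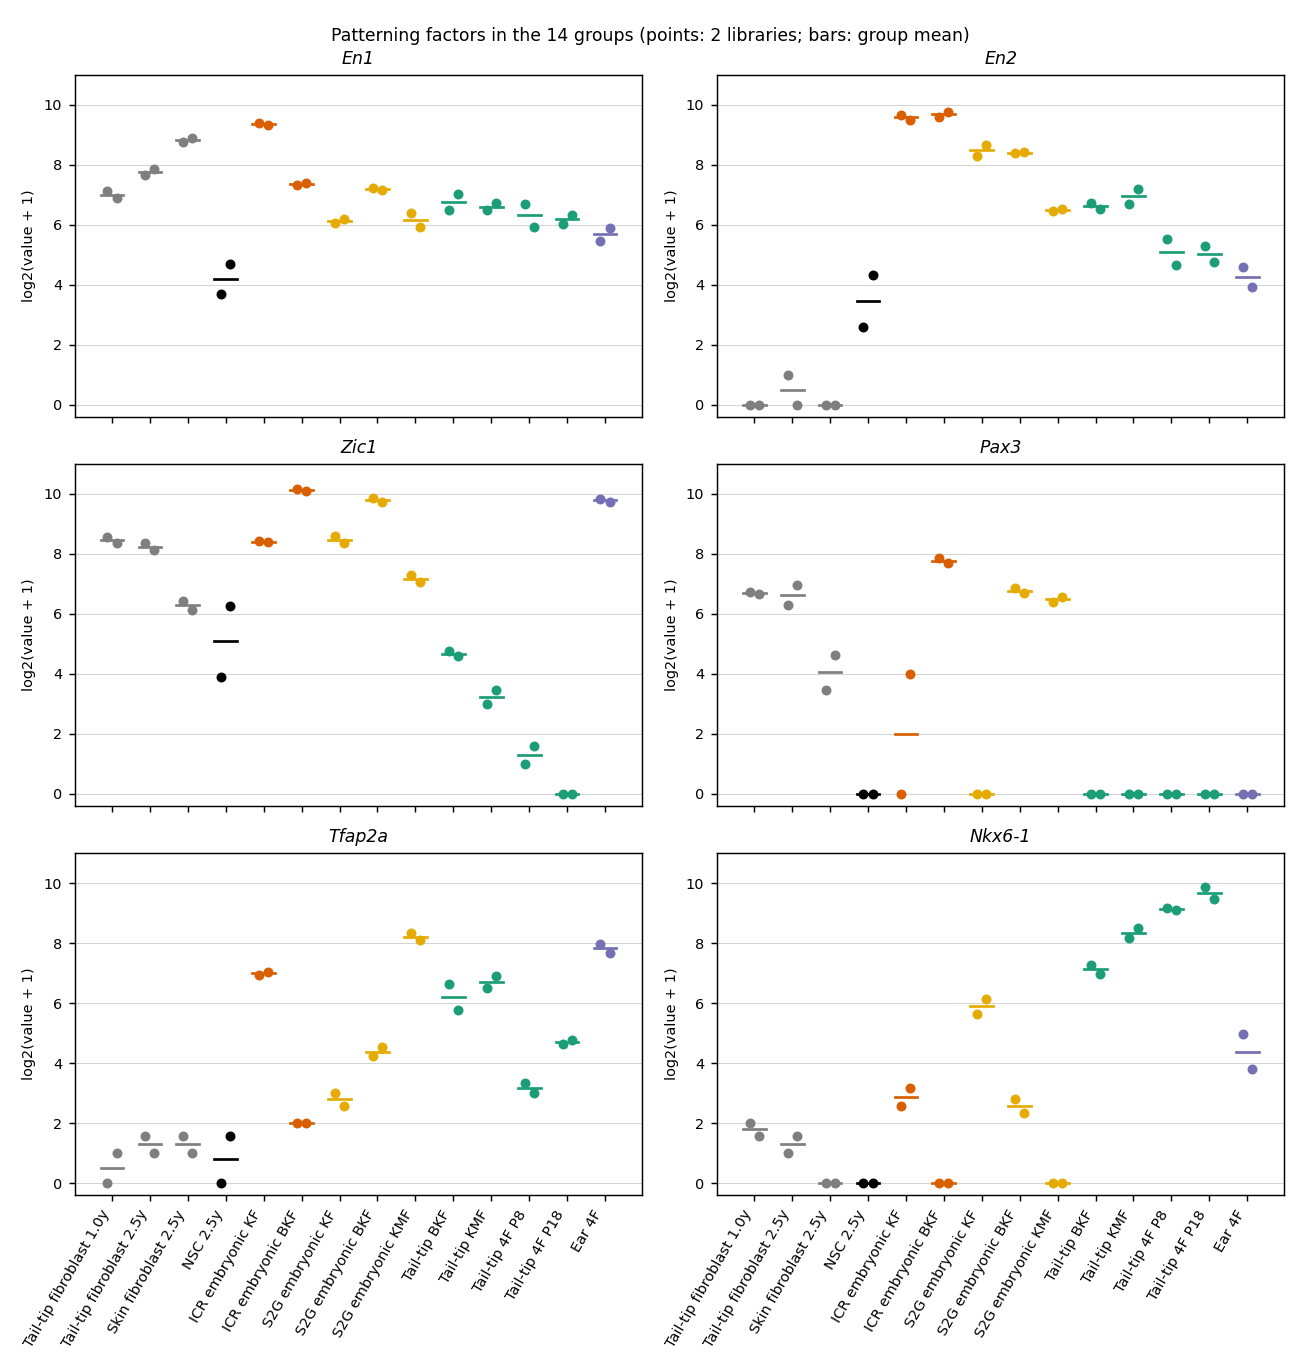
Normalised values of the 6 genes in the 14 groups, as log2(value + 1), with 1 panel per gene. Dots are libraries and bars are group means, and the panels show En2 at 0 or 1 in fibroblasts, Pax3 at 0 in all tail-tip lines and Nkx6-1 highest in the tail-tip lines.

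The lines differed from each other more in these genes than in most, though the genes were chosen with earlier results of these data known. Their rank among tested genes is therefore a description and not a test. The lowest group mean was 0 for Zic1, Pax3 and Nkx6-1. As log2(value + 1), the SD between the 10 miNSC group means was 3.74 for Zic1, 3.59 for Nkx6-1, 3.32 for Pax3, 2.20 for Tfap2a, 1.93 for En2 and 1.04 for En1. The median of all tested genes was 0.373. Of the tested genes, 99.7% had a smaller SD than Zic1 and 82.7% a smaller SD than En1. SDs within groups were 0.19 to 0.36 for 5 of the genes and 0.90 for Pax3, whose ICR KF libraries were 0 and 15.

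With all 20 miNSC libraries set against the 6 fibroblast libraries, 6 of 6 genes passed the threshold, beside 76.5% of all tested genes. En2 (6.89 ± 0.21, adjusted p = 1.16e-14) and Tfap2a (4.27 ± 0.21, adjusted p = 5.86e-12) were higher in miNSC with no overlap between the sides. For Tfap2a the gap was narrow, with the lowest miNSC value at 3 and the highest fibroblast value at 2. Nkx6-1 was higher too, with overlap (3.97 ± 0.16, adjusted p = 4.70e-13). Lower on the log2 scale, all with overlap, were Pax3 (-3.49 ± 0.36, adjusted p = 1.53e-07), Zic1 (-1.37 ± 0.22, adjusted p = 2.17e-05) and En1 (-1.09 ± 0.14, adjusted p = 1.53e-06). For Zic1 the linear mean went the other way, 376 ± 419 (SD, n = 20) in miNSC and 244 ± 133 (SD, n = 6) in fibroblasts. With the mean of each line as 1 sample, 2 of the 6 calls were left, En2 and Tfap2a, beside 53.8% of tested genes, and adjusted p was 0.149 for Nkx6-1, 0.183 for Pax3, 0.207 for En1 and 0.786 for Zic1. Against 1.0-year tail-tip fibroblasts alone the difference of En1 was -0.23 (adjusted p = 0.383) and that of Zic1 -2.16 (adjusted p = 3.15e-05).

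Tail-tip lines and tail-tip fibroblasts of the same age allow the matched comparison, with 8 and 2 libraries. Here 5 of the 6 genes passed, beside 66% of tested genes. Zic1 fell from a mean of 352 ± 36.1 to 8.62 ± 10.4 (-6.16 ± 0.37, adjusted p = 2.07e-10), and Pax3 from 102 ± 2.83 to 0 in all libraries (adjusted p = 5.58e-08). Nkx6-1 rose from 2.5 ± 0.707 to 460 ± 282 (6.77 ± 0.27, adjusted p = 1.09e-12), and Tfap2a from 0.5 ± 0.707 to 53.4 ± 43.7 (4.69 ± 0.35, adjusted p = 3.80e-09). En2, listed at 0 in these fibroblasts, rose to 71.8 ± 44.4 (adjusted p = 2.41e-10). The sides did not overlap for any of these 5. En1 overlapped and did not pass (-0.53 ± 0.23, adjusted p = 0.0543), and it passed when tail-tip 4F passage 8 replicate 1 was left out (adjusted p = 0.0189) or tail-tip BKF replicate 2 (adjusted p = 0.0335), and with a pseudocount of 10 (adjusted p = 0.0325).

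Against NSC, 6 of 6 genes passed as higher in miNSC, beside 40.6% of all tested genes passing in either direction. En1 (2.56 ± 0.22, adjusted p = 1.56e-07) and Tfap2a (4.51 ± 0.33, adjusted p = 2.49e-08) did not overlap, and En2 did (3.60 ± 0.33, adjusted p = 4.09e-07). The lowest miNSC value of Tfap2a was 3 and its highest NSC value 2. Nkx6-1 (adjusted p = 3.35e-10) and Pax3 (adjusted p = 0.00468) were listed at 0 in NSC. Of 20 miNSC libraries, Pax3 was at 0 in 13 and Nkx6-1 in 4. The call of Zic1 (1.21 ± 0.34, adjusted p = 0.0103, with overlap) rested on NSC passage 2. Without passage 2 the difference was 0.03, and without passage 5 it was 2.39. The tail-tip KMF and 4F libraries, with Zic1 at 0 to 10, lay below both NSC libraries. With the mean of each line as 1 sample 0 of the 6 passed in limma, beside 0.983% of tested genes, and adjusted p ran from 0.334 for En1 to 0.869 for Zic1. Of the 6, 3 had an unadjusted p under 0.05 in that fit: En1, En2 and Tfap2a. NSC and fibroblasts, which serve as the other side of both contrasts above, differed in 5 of the 6 genes, beside 65.9% of tested genes. En2 was higher in NSC (3.29 ± 0.37, adjusted p = 6.02e-07) and En1 lower (-3.66 ± 0.24, adjusted p = 7.52e-10), neither with overlap. Zic1 was also lower (-2.58 ± 0.38, adjusted p = 1.39e-05, with overlap; -1.40 without passage 2), and Pax3 (adjusted p = 4.84e-07) and Nkx6-1 (adjusted p = 0.00374) were listed at 0 in NSC. The low values of Nkx6-1 did not pass with 10 in place of 1 as the pseudocount (adjusted p = 0.412). With line means En1 alone of the 6 passed, beside 34.4% of tested genes. Summed neuron markers, 5 genes, were 94805 at passage 2 and 35404 at passage 5, and their part in these results was not tested.

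How the starting fibroblast mattered was compared within cocktails. Sox2-GFP embryonic BKF and KMF lines were set against tail-tip BKF and KMF lines, 4 libraries a side, and 3 of the 6 genes passed, beside 33% of tested genes. Zic1 was higher in the embryonic lines (519 ± 435 and 16.5 ± 9.40, a difference of 4.54 ± 0.33, adjusted p = 5.10e-08). Pax3 was at 98.8 ± 12.8 there and listed at 0 in the tail-tip lines (adjusted p = 2.21e-07). Nkx6-1 was lower, at 2.5 ± 3 and 230 ± 110 (-6.44 ± 0.24, adjusted p = 2.52e-11). None of these overlapped. En1, En2 and Tfap2a overlapped and did not pass, with adjusted p of 1, 0.127 and 0.790. However, En2 passed with a pseudocount of 10 (0.0173) and in a fit of only these groups (0.0143). For each of these genes the cocktails went opposite ways, without overlap in either. Embryonic and tail-tip means of Tfap2a were 20 ± 2.83 and 76 ± 31.1 in BKF, but 297.5 ± 33.2 and 104.5 ± 20.5 in KMF. En2 had 337 and 97 in BKF, and 88.5 and 123.5 in KMF. En1 had 144 and 108 in BKF, and 70.5 and 96 in KMF. Donor age, tissue and line cannot be told apart here.

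**Figure D2:**
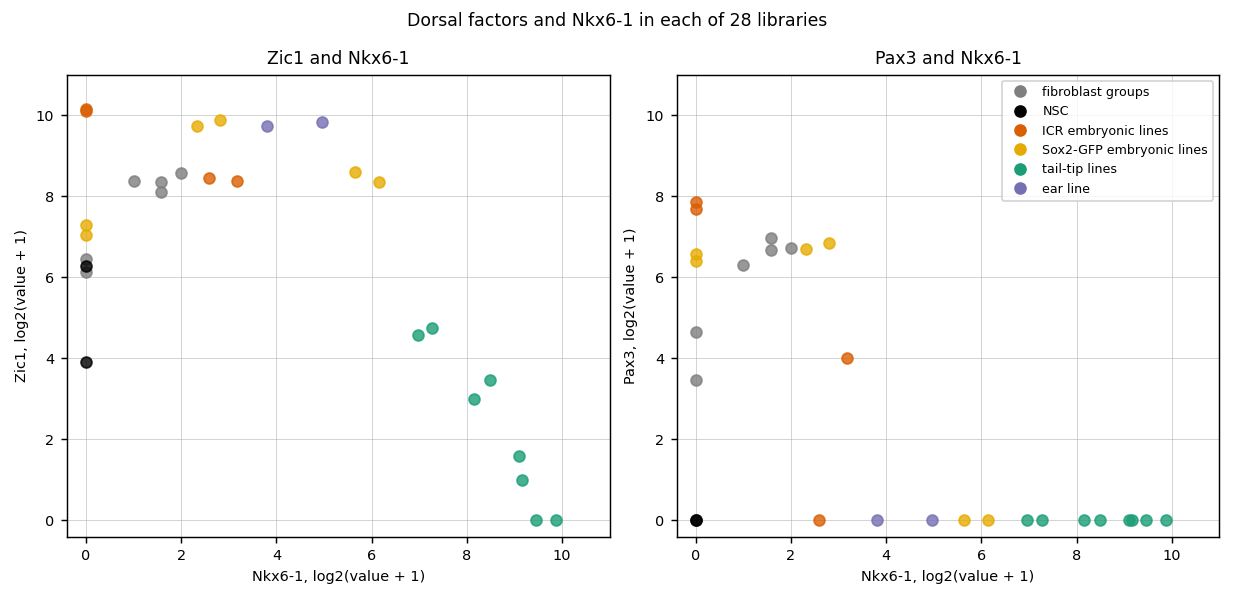
Zic1 and Pax3 against Nkx6-1, as log2(value + 1), with 1 dot per library, coloured by origin. The tail-tip lines sit at high Nkx6-1 with low Zic1 and with Pax3 at 0, and every other library has Nkx6-1 at 70 or below.

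Ear and tail-tip origins were compared in 4F cells at 1.0 year. The ear line, whose passage the labels do not give, was set against a lone tail-tip line at both its passages. Origin and line cannot be told apart here. With 2 ear and 4 tail-tip libraries, 3 of the 6 genes passed, beside 28.6% of tested genes. Zic1 was higher in the ear line (880 ± 39.6 and 0.75 ± 0.957, a difference of 9.14 ± 0.40, adjusted p = 1.18e-10), Nkx6-1 lower (21.5 ± 12 and 690 ± 181, -5.02 ± 0.29, adjusted p = 4.02e-09) and Tfap2a higher (226 ± 31.1 and 16.5 ± 9.88, 3.89 ± 0.38, adjusted p = 1.61e-06). Pax3 was at 0 in both. En1 (-0.57 ± 0.25, adjusted p = 0.109) and En2 (-0.81 ± 0.39, adjusted p = 0.142) were lower in the ear line without overlap and did not pass. En1 passed without tail-tip 4F passage 8 replicate 2 (adjusted p = 0.0360).

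ICR and Sox2-GFP embryonic lines were compared over KF and BKF, 4 libraries a side, and 5 of the 6 genes passed, beside 38.4% of tested genes. En1 (1.70 ± 0.21, adjusted p = 1.14e-05) and En2 (1.19 ± 0.32, adjusted p = 0.00737) were higher in ICR without overlap. For En1 most of the difference lay in KF, with 648 ± 19.8 in ICR and 68.5 ± 4.95 in Sox2-GFP. In BKF its means were 162.5 ± 4.95 and 144 ± 5.66. En2 had 768 and 357 in KF, and 819 and 337 in BKF. Nkx6-1 was lower with overlap (-2.79 ± 0.24, adjusted p = 2.98e-07). Tfap2a (0.90 ± 0.31, adjusted p = 0.0313) and Pax3 (1.5 ± 0.55, adjusted p = 0.0417) were higher, also with overlap. For Tfap2a the cocktails went opposite ways, with 126 ± 5.66 in ICR and 6 ± 1.41 in Sox2-GFP for KF, and 3 ± 0 and 20 ± 2.83 for BKF. The call of Pax3 was lost on leaving out any of the 8 libraries other than ICR KF replicate 1 (adjusted p 0.0789 to 0.138, difference 0.50 without ICR KF replicate 2), and that of Tfap2a on leaving out any other than Sox2-GFP KF replicate 1 (0.0507 to 0.101). Without ICR KF replicate 1 the difference of Pax3 was 2.5 (adjusted p = 2.34e-06), and in a fit of only these groups its adjusted p was 0.255. Zic1 did not pass (0.12 ± 0.33, adjusted p = 0.828).

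For the factor B, the BKF line was set against the KF line in both strains, with 2 libraries a side. Each cocktail is 1 line per strain, so B and line cannot be told apart. In ICR, 5 of the 6 genes passed, beside 13.1% of tested genes. Pax3 rose from 7.5 ± 10.6 to 217 ± 18.4 (5.77 ± 0.78, adjusted p = 7.55e-05) and Zic1 from 339 ± 9.90 to 1114 ± 29.0 (1.71 ± 0.46, adjusted p = 0.0212). Tfap2a fell from 126 ± 5.66 to 3 ± 0 (-4.99 ± 0.44, adjusted p = 8.37e-07), En1 from 648 ± 19.8 to 162 ± 4.95 (-1.99 ± 0.29, adjusted p = 1.87e-04) and Nkx6-1 from 6.5 ± 2.12 to 0 in both libraries (adjusted p = 1.96e-05). None of the 5 overlapped, and En2 did (0.09 ± 0.45, adjusted p = 0.999). Zic1 lost its call without any 1 of the 4 libraries (adjusted p 0.0868 to 0.106). Pax3 did so in a fit of only the groups compared (adjusted p = 0.177), and without ICR KF replicate 1 its difference was 3.77 (adjusted p = 7.44e-06).

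In Sox2-GFP embryonic cells, B added to KF went with 5 of 6 calls as well, beside 37.7% of tested genes. Pax3, listed at 0 in KF, was at 108 ± 7.78 with B (adjusted p = 6.03e-06), and Nkx6-1 fell from 59.5 ± 14.8 to 5 ± 1.41 (-3.33 ± 0.34, adjusted p = 1.95e-06). En1 (1.06 ± 0.29, adjusted p = 0.00941), Tfap2a (1.59 ± 0.44, adjusted p = 0.00952) and Zic1 (1.33 ± 0.46, adjusted p = 0.0330) rose. En2 overlapped and did not pass (-0.07 ± 0.45, adjusted p = 0.964). The call of Zic1 was lost without any 1 of the 4 libraries (adjusted p 0.0782 to 0.145). En1 lost it without replicate 1 of BKF (0.0525) or KF (0.0600), and Tfap2a without replicate 2 of BKF (0.0640) or KF (0.0769).

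En1 and Tfap2a thus went opposite ways with B in the 2 strains. The difference between the effects passed in the same fit for 2 of the 6 genes, beside 32.1% of tested genes: En1 (-3.05 ± 0.42, adjusted p = 3.98e-05) and Tfap2a (-6.58 ± 0.62, adjusted p = 1.10e-06), ICR minus Sox2-GFP. For Zic1, En2, Nkx6-1 and Pax3 it did not, with adjusted p of 0.700, 0.896, 0.510 and 0.524. Each strain is represented by 1 KF and 1 BKF line, so strain and line cannot be told apart. For Pax3 the difference passed without ICR KF replicate 1 (-3.01, adjusted p = 3.12e-04), and that for Nkx6-1 passed with the pseudocount of 10 (1.48, adjusted p = 0.00152).

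For the factor M, the KMF line of Sox2-GFP embryonic cells was set against the KF line, with the same KF libraries as above. Each cocktail is 1 line here, so M and line cannot be told apart. Of the 6 genes 5 passed, beside 39.1% of tested genes, and the sides of these did not overlap. Tfap2a rose from 6 ± 1.41 to 298 ± 33.2 (5.42 ± 0.44, adjusted p = 1.35e-07), and Pax3 from 0 to 89 ± 7.07 (adjusted p = 7.57e-06). En2 fell from 357 ± 66.5 to 88.5 ± 3.54 (-1.99 ± 0.45, adjusted p = 0.00225), and Nkx6-1 from 59.5 ± 14.8 to 0 in both libraries (adjusted p = 3.85e-09). Zic1 fell as well (-1.31 ± 0.46, adjusted p = 0.0347), a call lost without any 1 of the 4 libraries (adjusted p 0.0801 to 0.149). En1 overlapped and did not pass (0.02 ± 0.29, adjusted p = 1).

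**Figure D3:**
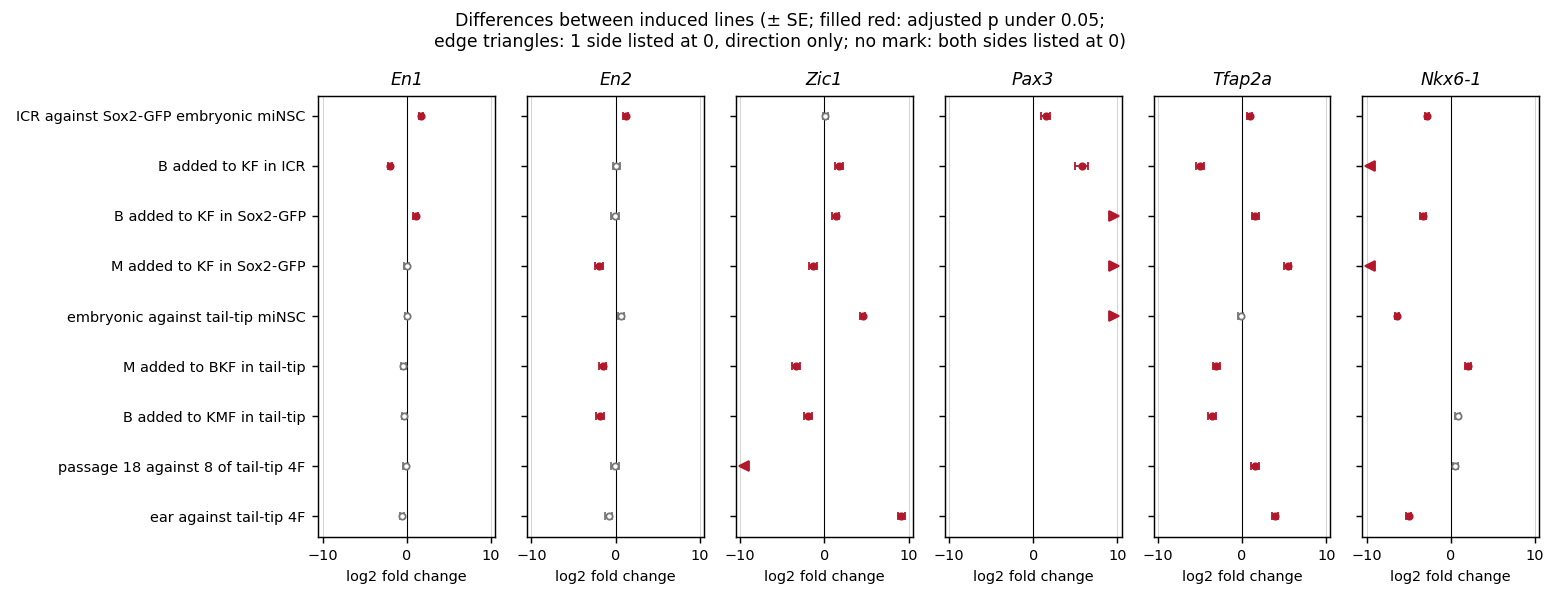
Log2 fold changes ± SE of the 6 genes in 9 comparisons between induced lines, on the log2(value + 1) scale. Filled red marks passed the adjusted p threshold of 0.05 and open marks did not, triangles at the edge give only the direction where 1 side was listed at 0, and no mark means that both sides were at 0. En1 and Tfap2a lie on opposite sides of 0 for B added in ICR and in Sox2-GFP cells.

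In tail-tip cells the 3-factor lines were set against 4F at passage 8, and both comparisons share the 4F libraries. Each cocktail is 1 line here, so added factor and line cannot be told apart. The labels give no passage for the BKF and KMF lines. For M added to BKF, 4 of the 6 genes passed, beside 26.1% of tested genes. Zic1 fell (-3.38 ± 0.46, adjusted p = 6.43e-05), Tfap2a fell (-3.04 ± 0.44, adjusted p = 1.09e-04), En2 fell (-1.53 ± 0.45, adjusted p = 0.0195) and Nkx6-1 rose (2.0 ± 0.34, adjusted p = 4.23e-04). For B added to KMF, 3 of 6 passed, beside 35.5% of tested genes. Tfap2a (-3.55 ± 0.44, adjusted p = 1.30e-05), Zic1 (-1.94 ± 0.46, adjusted p = 0.00374) and En2 (-1.86 ± 0.45, adjusted p = 0.00409) fell, while Nkx6-1 was higher without overlap and did not pass (0.80 ± 0.34, adjusted p = 0.0796). Pax3 was at 0 throughout, and En1 overlapped in both and did not pass. En2 lost its call without 4F passage 8 replicate 2 in both comparisons (adjusted p = 0.175 and 0.0582) and, for M, without BKF replicate 1 (0.0844) or 2 (0.0587). In fits of only the groups compared, En2 lost both calls (0.147 and 0.0669) and Tfap2a that for M (0.0737), Nkx6-1 gained that for B (0.0436), and Zic1 lost that for B with the pseudocount of 10 (0.150).

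The effect of passage was read in 1 line. For passage 18 against passage 8 of 4F tail-tip cells 2 of 6 passed, beside 35.1% of tested genes. Tfap2a rose from 8 ± 1.41 to 25 ± 1.41 (1.54 ± 0.44, adjusted p = 0.0127), and Zic1 went from 1.5 ± 0.707 to 0 in both libraries (adjusted p = 0.0400). Nkx6-1 had 557.5 ± 16.3 and 822.5 ± 168 and did not pass (0.55 ± 0.34, adjusted p = 0.233). The call of Zic1 was lost without any 1 of the 4 libraries (adjusted p 0.0553 to 0.220), with the pseudocount of 10 (0.709), with quantile normalisation (0.401) and in a fit of only these groups (0.0685). Tfap2a lost its call without replicate 2 of passage 18 (0.0688) or passage 8 (0.0769).

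Among the fibroblasts themselves, age and tissue were compared. Between 2.5 and 1.0 years in tail-tip cells 0 of the 6 genes passed in limma, beside 11% of tested genes, and the smallest adjusted p was that of En1 (0.77 ± 0.29, adjusted p = 0.113), the 1 gene with an unadjusted p under 0.05. Skin and tail-tip fibroblasts of 2.5 years differed in 4 of the 6, beside 26.6%. En1 was higher in skin (454 ± 27.6 and 216 ± 21.9, 1.07 ± 0.29, adjusted p = 0.0125). Zic1 (-1.96 ± 0.46, adjusted p = 0.00474) and Pax3 (-2.58 ± 0.78, adjusted p = 0.0214) were lower, and Nkx6-1 was listed at 0 in skin and at 1.5 ± 0.707 in tail-tip cells (adjusted p = 0.00971). None of the 4 overlapped. Zic1 kept its call with any library left out. Pax3 lost it without skin replicate 1 (adjusted p = 0.168) or tail-tip replicate 1 (0.0508) or 2 (0.125), En1 without skin replicate 2 (0.0751) or tail-tip replicate 1 (0.0889), and Nkx6-1 without tail-tip replicate 2 (0.102). In a fit of only these groups Pax3 (0.0718) and Nkx6-1 (0.0545) lost it too, and Nkx6-1 also with the pseudocount of 10 (0.551) and with quantile normalisation (0.0586). Of 5 macrophage and leukocyte markers 4 had values, with sums of 257 and 243 in tail-tip fibroblasts at 1.0 year, 834 and 816 at 2.5 years and 323 and 298 in skin, and their part in these results was not tested.

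Markers of other cell types that use these genes were read beside them. Of 8 neural crest and Schwann cell markers 6 had values here. Their sums were 2695 to 4036 in fibroblasts, 625 to 2312 in miNSC and 1346 to 3449 in NSC. Sox10 was at 0 to 2 in fibroblasts and 0 to 40 in miNSC. Each of the other 5 with values reached 10 or more in a fibroblast library. Of 6 melanocyte markers 2 had values (Mitf and Tyr). Their sums were 196 to 560 in fibroblasts, 59 to 308 in miNSC and 60 to 192 in NSC. Among fibroblasts the mean sums were 558.5 in tail-tip cells at 1.0 year, 339.5 at 2.5 years and 222 in skin. Of 7 keratinocyte markers, cells that also use Tfap2a, 2 had values (Krt10 and Trp63), with sums of 56 to 113 in fibroblasts and 70 to 159 in miNSC. Of 6 skeletal muscle markers 3 had values (Des, Pax7 and Chrna1), with sums of 13 to 114 and 0 to 257, and Pax7 made up 256 of that 257, in a Sox2-GFP KMF library. The part of such cells in the results on Pax3 and Tfap2a was not tested.

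Other genes of the same pathways were read from lists that include members of the 6. Of 16 midbrain and hindbrain genes 8 were tested. In miNSC against fibroblasts 3 were higher and 3 lower, beside 76.5% of tested genes called, with a median of 0.49 beside 0.10 over all tested genes. Against NSC 7 were higher in miNSC, En1 and En2 among them, and 0 lower, beside 40.6% of tested genes called. The median there was 1.58 beside 0.03. Gbx2, a homeobox gene of the anterior hindbrain, was at 6 and 18 in NSC, at 110 and 112 in ICR BKF and at 244 and 76 in tail-tip 4F at passage 8, and at 18 and 9 in tail-tip KMF, within the NSC range, and was higher in miNSC than in NSC (2.15 ± 0.45, adjusted p = 0.00116). Lmx1b, which encodes a LIM homeodomain factor of the isthmus and midbrain, was at 116 and 102 in the ear line and 20 and 16 in NSC (1.00 ± 0.23 in miNSC against NSC, adjusted p = 0.00247). In Sox2-GFP KMF, at 9 and 15, and in tail-tip 4F at either passage, at 13 and 14, it was below both NSC libraries. Egr2, a zinc finger gene of hindbrain segments, stood at 3820 and 3504 in Sox2-GFP KF and at 925 or below in every other miNSC library. It was also present in fibroblasts, with means of 228 and 475 in tail-tip cells at 1.0 and 2.5 years and 270 in skin. These lay within the range of the other miNSC groups, from 101.5 in ICR KF to 899 in tail-tip KMF, and NSC had 82.5. Egr2 was lower in the Sox2-GFP embryonic BKF (-3.35 ± 0.73, adjusted p = 0.00186) and KMF (-2.64 ± 0.73, adjusted p = 0.00896) lines than in the KF line.

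Of 16 dorsal and plate border genes 6 were tested. In Sox2-GFP embryonic lines against tail-tip lines 4 were higher (Zic1, Pax3, Pax7 and Gbx2) and 0 lower, beside 33% of tested genes called. The median was 3.08 beside -0.01 over all tested genes. Gbx2 is also counted among the midbrain and hindbrain genes, and Tfap2a and Msx1 did not pass. Pax7, the paired-box relative of Pax3, was at 142 and 190 in Sox2-GFP BKF and 256 and 207 in KMF, and at 0 in tail-tip BKF and KMF (adjusted p = 1.12e-10). Pax7 and Pax3 were not paired in every line, since Pax7 was at 7 and 3 in ICR BKF, where Pax3 was highest, and at 38 and 48 in tail-tip 4F at passage 8, where Pax3 was at 0. Of 15 intermediate and ventral genes 7 were tested. In the same comparison 0 were higher and 5 lower, Nkx6-1 among them, beside the same 33%, with a median of -0.60 beside -0.01. Dbx2, a homeobox gene of intermediate progenitors, was at 434 and 572 in tail-tip BKF and 18 and 26 in tail-tip KMF, against 38 and 40 in Sox2-GFP BKF and 0 and 0 in Sox2-GFP KMF (-4.07 ± 0.50, adjusted p = 1.13e-05). It was at 128 and 156 in tail-tip 4F at passage 8, 1055 and 1626 at passage 18, and 124 and 140 in ICR KF. Unlike Nkx6-1, Dbx2 was high in NSC, at 1278 and 2191.

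All 5 Zic genes were tested, and for B added to KF 4 rose and 0 fell in each strain, beside 13.1% of tested genes called in ICR and 37.7% in Sox2-GFP. Zic1, whose calls were lost without any 1 library, is among the 4. The median was 1.71 in ICR and 1.56 in Sox2-GFP, beside -0.02 and 0.02 over all tested genes. For B added to KMF in tail-tip cells 0 rose and 1 fell, beside 35.5% of tested genes called. The median there was -0.53 beside -0.04. Zic2 went from 38 and 32 to 174 and 164 in ICR (2.24 ± 0.45, adjusted p = 0.00273) and from 13 and 9 to 179 and 120 in Sox2-GFP (3.64 ± 0.45, adjusted p = 1.29e-05). Zic2 did not share the tail-tip fall of Zic1, since tail-tip lines had 92 to 197 in all 8 libraries, and tail-tip fibroblasts 0 or 1. Of 9 partners and cofactors of engrailed and Pax proteins, such as Tle4, 8 were higher and 1 lower in miNSC against fibroblasts, beside 76.5% of tested genes called, with a median of 1.15 beside 0.10. Of 15 forebrain genes 9 were tested, and against NSC 0 were higher and 5 lower in miNSC, beside 40.6% of tested genes called, with a median of -0.87 beside 0.03. These list counts were not refitted with line means.

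The genes most like each of the 6 were ranked by Pearson r of group means of log2(value + 1). Over the 10 miNSC groups, which share origins and cocktails and include 1 line at 2 passages, 12295 genes were ranked. The first 3 were Zfp966, Kansl3 and Ifi202b for En1 (r 0.95 to 0.91), Cnpy1, Pter and Pfkfb3 for En2 (0.94 to 0.90), and Ap3m1, Bag2 and Trappc1 for Zic1 (0.98 to 0.92). They were Ddi1, Ccdc144b and Npepl1 for Pax3 (0.98 to 0.95), Qdpr, Nrxn2 and Rell1 for Tfap2a (0.92 to 0.88), and Tmem258, Bcl2l2 and Zswim9 for Nkx6-1 (0.98 to 0.95). Over all 14 groups (12443 genes) they were Sf3b5, Tmem238 and Ngdn for En1 (0.85 to 0.83), Cnpy1, Calcrl and Vps52 for En2 (0.92 to 0.91), and Atp5s, Mecom and Bag2 for Zic1 (0.79 to 0.78). For Pax3 they were Tmem41a, Hgs and Elk3 (0.82 to 0.81), for Tfap2a Mef2c, Scarb1 and Stim2 (0.91 to 0.89), and for Nkx6-1 Ppm1b, Spindoc and Barx2 (0.92 to 0.88). In both rankings Cnpy1 was first for En2, and Bag2 was among the first 3 for Zic1.

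Cnpy1 and En2 are neighbours. Cnpy1 lies at chr5:28200819-28245806 on the minus strand, 28653 bases from En2, with 0 protein-coding genes between them. Like En2, Cnpy1 was highest in the ICR lines (1110 and 1084 in BKF, 728 and 622 in KF), and it was at 0 in all 6 fibroblast libraries. In NSC the neighbours parted, with Cnpy1 at 224 and 358 where En2 was at 5 and 19, and Cnpy1 did not pass in miNSC against NSC (-0.15 ± 0.12, adjusted p = 0.320). Zic4, which overlaps Zic1, ran from 0 to 62 and followed it, with r = 0.99 over the 10 miNSC groups and 0.98 over all 14. Zic4 was at 0 or 2 in tail-tip 4F at passage 8 and at 44 and 44 in the ear line. Strand use in counting is not given in the sources used here, so reads of Zic1 and Zic4 in the overlap cannot be told apart.

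**Figure D4:**
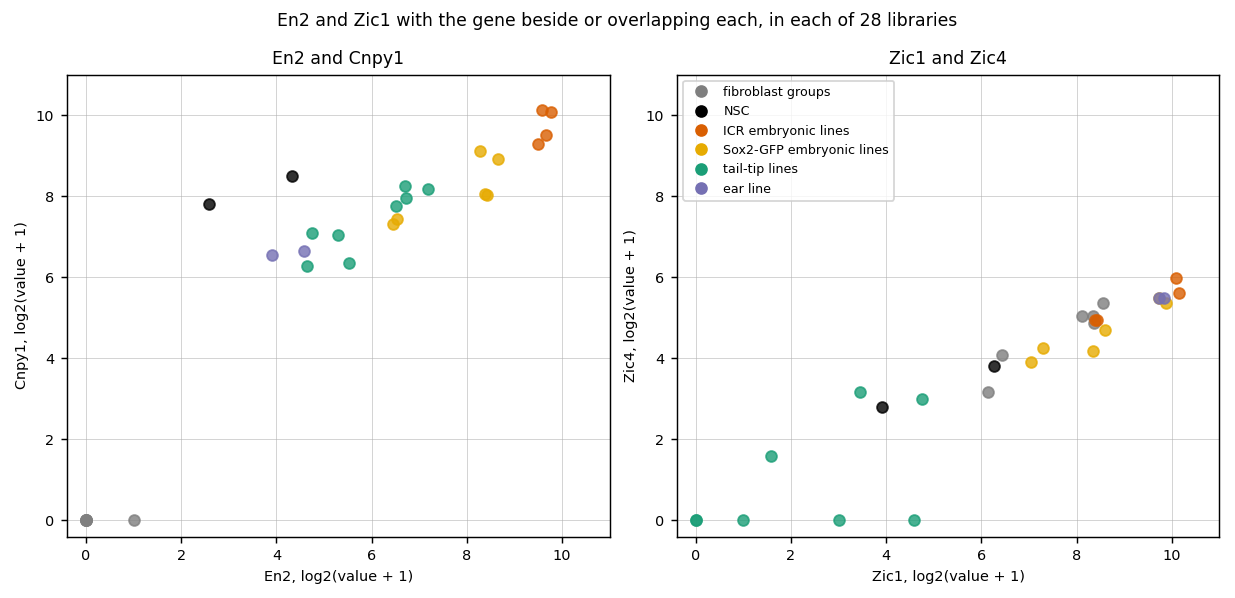
En2 with Cnpy1 and Zic1 with Zic4, as log2(value + 1), with 1 dot per library coloured by origin. For En2 and Cnpy1 the NSC libraries have Cnpy1 at 224 and 358 with En2 at 5 and 19, and Zic4 was at 0 only among the tail-tip lines.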

How the data were processed

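The authors deposited whole-number scores, 1 for each gene in each library, labelled as normalised expression. RSEM, Bowtie2 2.0 and mm10 are named per the submitters' processing notes, and the normalisation is not given in the sources used here. All 17295 gene identifiers were found in GENCODE M21. Groups came from the sample titles. The genes and lists were chosen with earlier results of these data known.

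Testing was limited to genes averaging 10 or more over 28 libraries and done on log2(value + 1) with limma 3.58.1 (R 4.3.3), in 1 model with 1 term per group and a variance trend. Contrasts weighed groups equally. All 6 genes were named, up to 4 genes per pathway list with the smallest adjusted p in a comparison, and the 3 genes most like each over 10 and 14 groups, among genes with a group mean of at least 100 and an assigned name. Alternatives were a pseudocount of 10, quantile normalisation, no filter on low values, no variance trend and a robust variance prior. Others were fits of only the groups compared, a replicate block, line means, 1.0-year fibroblasts only and leaving out each library. The ear line was also set against tail-tip 4F at passage 8 alone and at passage 18 alone. The pipeline was tested on simulated data. Python 3.11.15, pandas 2.3.3 and matplotlib 3.10.9 served for tables and figures.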

Additional observations from a re-analysis of the deposited data

Results flagged for a closer look

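The effect of adding B to KF differed between ICR and Sox2-GFP embryonic lines for 2 of the 6 genes, by a test of the difference itself in the limma fit. For En1 the difference of the log2 fold changes, ICR minus Sox2-GFP, was -3.05. For Tfap2a it was -6.58. In each strain the effect compares 2 libraries of 1 line with 2 libraries of another.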

How the results depend on the processing

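Of 63 called results for single genes, 40 kept the call in every alternative other than leaving out a library, 48 with any library left out and 32 in all, and none of the 63 reversed. A pseudocount of 10 moved 31 of the 63 called differences by over 1.5 times. Counts of the 6 genes past the threshold moved by over 1.5 times as follows, and outside single-library fits the others moved by 1 at most. For passage 18 against 8 the count was 2, and 1 with a pseudocount of 10, with quantile normalisation and in a fit of only the groups compared. In such fits it was 2 in place of 4 for M added to tail-tip BKF and for skin against tail-tip fibroblasts. With line means it was 2 of 6 for miNSC against fibroblasts, 0 of 6 for miNSC against NSC and 1 in place of 5 for NSC against fibroblasts. Replicate numbers did not pair the samples: deviations of same-numbered libraries correlated at -0.05 to 0.07 over 78 pairs of groups, 0 of them over 0.1. With the replicate block the count was 5 in place of 3 for ear against tail-tip 4F and 1 in place of 0 for tail-tip fibroblasts of 2.5 against 1.0 years. It also let En1 pass for tail-tip miNSC against their fibroblasts (adjusted p = 0.0244, 6 genes in place of 5) and En2 for embryonic against tail-tip lines (0.0301, 4 in place of 3). Leaving out each library gave 3 to 3 for B added to Sox2-GFP KF, 3 to 4 for ICR against Sox2-GFP, 0 to 1 for the passages, 2 to 3 for skin against tail-tip fibroblasts, 2 to 3 for B added to tail-tip KMF and 2 to 3 for the B effect between strains. Signs changed for uncalled differences only. Pax3 in the B effect was 0.28 with a pseudocount of 10 and -3.01 to 0.99 without single libraries. Without single libraries En1 ran from -0.66 to 0.11 for B added to tail-tip KMF, -0.21 to 0.26 for M added to KF, -0.14 to 0.12 for embryonic against tail-tip lines and -0.53 to 0.24 for the passages. En2 ran from -0.26 to 0.12 for B added to Sox2-GFP KF, -0.028 to 0.35 for the B effect and -0.50 to 0.38 for the passages. Pax3 ran from -0.38 to 0.28 for fibroblast age, and Tfap2a from -1.03 to 0.56 for NSC against fibroblasts and -0.37 to 0.057 for embryonic against tail-tip lines. Where a library was left out, its lone partner is assumed to vary like the other groups. The cause of these changes was not tested, and depth, which is unknown, could not be weighed.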
